A study of Mus musculus with 4 samples.

Results

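The step from 2.5 to 4.5 days after tamoxifen was read as the difference between 2 of the 4 arrays of a gastric corpus time course, the array of the 4.5-day pool minus the array of the 2.5-day pool. The members were chosen by their titles, and no vehicle array entered the difference. Both arrays measured total RNA of gastric corpus epithelium from wild-type mice, 6 weeks old when treated, and each held RNA pooled from 3 mice. Tamoxifen was given into the peritoneum as 5 mg for each 20 g of body weight, with sunflower seed oil (90%) and ethanol (10%) as its vehicle, in order to induce spasmolytic polypeptide-expressing metaplasia (SPEM). Mice were of FVB/N, BALB/c or C57BL/6 background and were injected on 1 or 3 days. The labels tie neither strain nor number of injections to an array, name no sex, and do not say whether the days count from the first or the last injection. The other arrays were tamoxifen at 12 hours and vehicle at 2.5 days, and their levels are printed beside the step for orientation. With 1 array per side there is no replicate check, no p-value can be given, and every difference below compares these 2 pools.

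Glands of the corpus hold acid-secreting parietal cells, zymogen-secreting chief cells, mucous neck cells, surface mucous cells and endocrine cells. In SPEM, parietal cells are lost and chief cells lose zymogen granules while the glands take on transcripts of mucous neck cells. High-dose tamoxifen is known as an acute and reversible model of this change in the mouse stomach. In RNA of whole tissue, fewer cells of a type and less RNA per cell cannot be told apart.

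Expression is given as log2 levels, where a difference of 1 is 2-fold. A gene was counted as expressed if its level reached the array median, 5.30 at 2.5 days or 5.32 at 4.5 days, on either array. Of 18193 genes, 12117 were expressed. At least 2-fold higher at 4.5 days were 30 genes (0.248% of expressed genes), and 22 (0.182%) were at least 2-fold lower. At 1.5-fold the counts were 113 (0.933%) higher and 142 (1.17%) lower. In either direction 52 genes (0.429%) were past 2-fold. By the same rule the step from 12 hours to 2.5 days held 395 such genes (3.24%). Against vehicle there were 357 (2.91%) on the 12-hour array, 646 (5.25%) on the 2.5-day array and 803 (6.53%) on the 4.5-day array. Of these comparisons all but that of the 12-hour array with vehicle share an array with the step. The 12-hour array stood apart in genes of other tissues. Over measured members, its medians against vehicle were 4.31 for a pancreatic acinar list and -4.18 for a squamous list. From 12 hours to 2.5 days these medians were -5.53 and 3.93. The part of other tissue in these counts was not tested. The 18 hybridisation controls differed between 4.5 and 2.5 days by a mean of -0.04 with an SD of 0.05 and by at most 0.14, and single poly-A controls among 19 by up to 0.52. The median over expressed genes was -0.02 and the robust SD 0.15. Parietal and chief cell transcripts marked the tissue as corpus on both arrays, with Atp4b at 12.45 and 12.88 and Cblif at 12.10 and 11.39. The smooth muscle genes Actg2, at 11.46 and 11.61, and Tagln, at 12.18 and 12.26, showed that the pools also held muscle, at much the same level at both times.

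**Figure D1:**
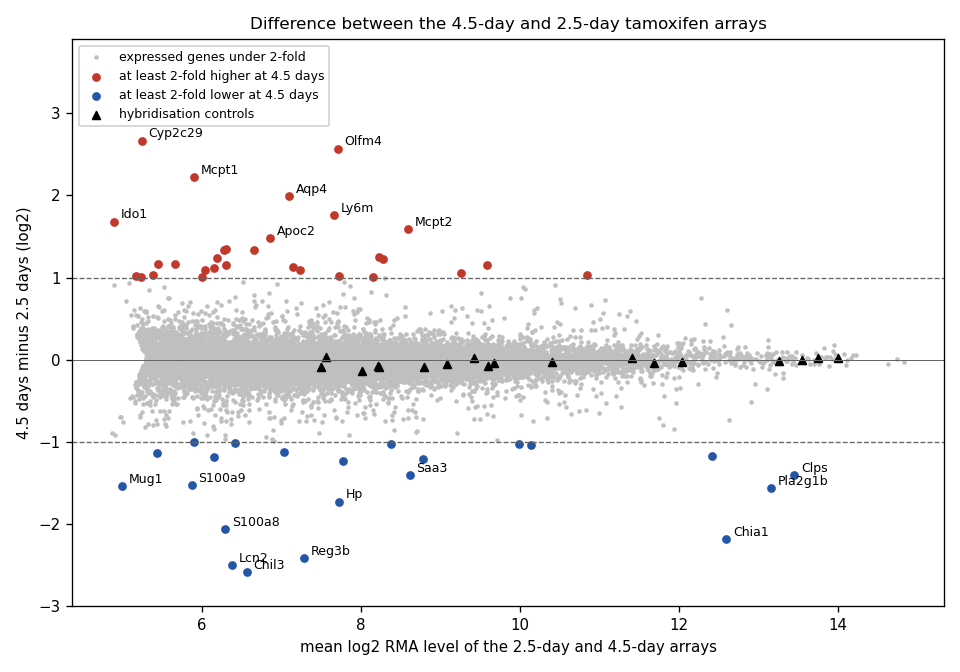
Difference between the 4.5-day and 2.5-day tamoxifen arrays (log2) against the mean log2 level of these arrays, 1 point per expressed gene. Red points are the 30 genes at least 2-fold higher, blue points the 22 at least 2-fold lower, triangles the 18 hybridisation controls, all within 0.14 of 0, and dashed lines mark 2-fold.

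All 52 genes past 2-fold had a gene name. Most rested on 1 probe set: 38 had no other probe set on the array, and in 44 only 1 probe set was above the array median. The other 8 genes (Sycn, Dmp1, Scd1, Reg3b, Pla2g1b, Clps, Cxcl13 and Hdc) had several probe sets above the median, which went the same way in all 8 and were all past 2-fold in 3 of them. Levels of a gene are given below in the order vehicle at 2.5 days, tamoxifen at 12 hours, tamoxifen at 2.5 days and tamoxifen at 4.5 days.

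The zymogen genes of chief cells were lower at 4.5 than at 2.5 days. Chia1, which encodes the acidic chitinase of gastric juice, was at 14.31, 14.31, 13.69 and 11.51, a step of -2.18 (4.53-fold). Pgc, the gene of pepsinogen C, was at 14.28, 14.12, 13.01 and 11.84, a step of -1.17. Pga5, another pepsinogen gene, was at 9.88, 9.67, 7.60 and 6.48, a step of -1.12. In each of these genes the 4.5-day array was the lowest of the 4 and the 12-hour array lay close to vehicle. Chia1 and Pgc were near the highest value of the vehicle array, 14.75, and differences of very bright probe sets are shrunk. The part of this in their smaller early differences was not tested. Cblif, the gene of intrinsic factor, which carries vitamin B12, had a step of -0.71 (13.78, 13.58, 12.10 and 11.39) and did not reach 2-fold. Of the 8 expressed members of the chief cell list 3 were past 2-fold lower and none higher (0.182% and 0.248% of all expressed genes). Below 0 lay 7 of the 8, against 56.2% of all expressed genes, and the median was -0.45. Over all 11 measured members, 3 of them dim on both arrays, it was -0.16. Regulators and proteins of granules or folding had smaller differences. Bhlha15, a transcription factor of granule maturation, had already reached 7.19 at 12 hours and stood at 7.39 and 7.20, the granule GTPase gene Rab3d was at 10.03 and 9.88, and Pdia2, a protein disulfide isomerase, was at 9.49 and 9.35 after 13.19 in vehicle. Tnfrsf19, a receptor gene also known as a stem cell marker, was the member above 0, at 8.08 and 8.45.

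Pla2g1b and Clps, which encode secreted proteins of lipid digestion, were also past 2-fold lower. Pla2g1b, a secreted phospholipase A2, was at 14.61, 14.57, 13.94 and 12.38, a step of -1.57. Clps, the lipase cofactor colipase, was at 14.67, 14.64, 14.16 and 12.75, a step of -1.40. These genes too were near the highest value of the vehicle array, 14.75, so their earlier differences may be shrunk, which was not tested. Both probe sets of Clps above the median were lower, at -1.40 and -1.10, whereas of the 4 probe sets of Pla2g1b the 2 brighter ones gave -2.09 and -1.57 and a dim one 0.04. Both genes stood on the pancreatic acinar list, of whose 17 measured members 11 were expressed. Of these 7 lay below 0 and 4 above (56.2% and 43.5% of all expressed genes). Past 2-fold 2 were lower and 2 higher (0.182% and 0.248% of all expressed genes), and the median was -0.05. Some acinar zymogen genes were below the array median at both times, such as Cela2a at 3.81 and 3.64 and Cpa1 at 4.30 and 4.41. Others were above it with small steps, such as Cela1 at 10.87 and 10.84, Cela3b at 6.35 and 6.48 and Prss2 at 5.70 and 5.58. The lipases of the list, Pnliprp1 and Cel, had steps of -0.05 and -0.13, and the acinar transcription factor gene Ptf1a one of -0.55. The higher members were Sycn, which encodes the zymogen granule protein syncollin, at 7.36, 10.94, 5.73 and 6.88, and the secreted ribonuclease gene Rnase1 at 9.19, 11.49, 4.67 and 5.69. Both stayed below their vehicle level at 4.5 days. The summed level of the 17 measured acinar genes was 15.16 at 2.5 and 13.86 at 4.5 days on the log2 scale. Clps and Pla2g1b, at 14.16 and 13.94 at 2.5 days, made up most of that sum, so its fall mainly repeats their steps. The part of other tissue in these differences was not tested.

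**Figure D2:**
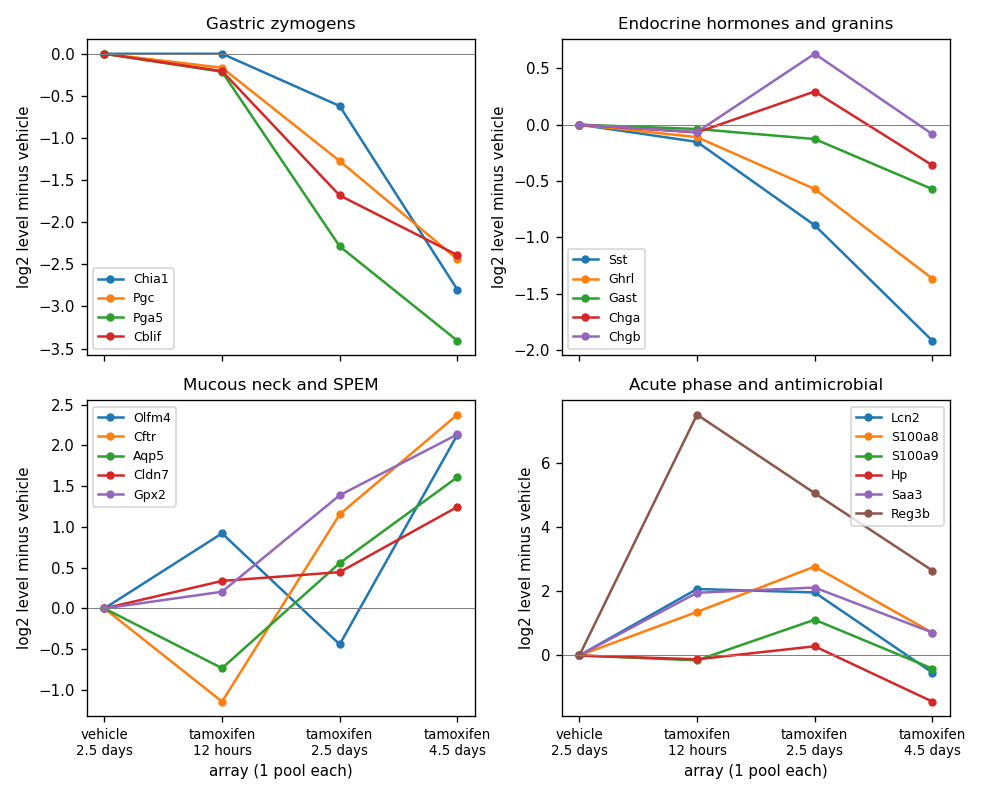
Log2 level minus the vehicle array for named genes of 4 groups, 1 point per array, with 1 pool of 3 mice each. Of the genes drawn, the gastric zymogens lay lowest at 4.5 days and the endocrine genes were lower at 4.5 than at 2.5 days. The mucous neck and SPEM genes drawn (Olfm4, Cftr, Aqp5, Cldn7 and Gpx2) were highest at 4.5 days. Other members of their list, among them Tff2, Clu and Dmbt1, were not highest at 4.5 days and are not drawn. The acute-phase and antimicrobial genes drawn were picked from the genes lower at 4.5 than at 2.5 days. The antimicrobial lectin gene Reg3g and the lysozyme genes Lyz1 and Lyz2 were higher at 4.5 days and are not drawn.

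Several genes known from inflammation, the acute phase or antimicrobial defence were among the 22 lower genes, grouped here after their values were seen. Chil3, a chitinase-like protein of activated macrophages, had the largest decrease, from 7.86 to 5.28 (-2.58, 6.0-fold), with 5.02 in vehicle. Lcn2, the siderophore-binding protein lipocalin, went from 7.63 to 5.14 (-2.50), below its 5.67 in vehicle. Reg3b, an antimicrobial lectin, was at 3.43, 10.94, 8.49 and 6.08, a step of -2.41, and its 2 probe sets gave -2.41 and -1.71. These genes had 4.5-day levels that differed in their place against vehicle, close to it for Chil3, under it for Lcn2 and above it for Reg3b.

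S100a8 and S100a9 encode the subunits of calprotectin, a metal-binding protein of neutrophils and stressed epithelium. S100a8 was at 4.56, 5.92, 7.33 and 5.27, a step of -2.06, and S100a9 at 5.52, 5.37, 6.63 and 5.11, a step of -1.52. Both had their highest level at 2.5 days. Hp, the hemoglobin-binding acute-phase protein haptoglobin, was at 8.31, 8.19, 8.59 and 6.87 (-1.73), so that its 4.5-day level was the lowest of the 4. Saa3, a serum amyloid A gene expressed outside the liver, was at 7.20, 9.16, 9.32 and 7.92 (-1.40). Serpina3n, an acute-phase protease inhibitor gene, had a step of -0.72, from 9.79 to 9.07. Timp1, a protease inhibitor gene induced in wounds, had a step of -0.47, from 8.57 to 8.11.

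Chemokine genes went both ways. Cxcl2, a neutrophil attractant, was at 4.27, 4.68, 6.01 and 4.87 (-1.14), and Cxcl13, which attracts B cells, at 6.67, 6.70, 8.40 and 7.16 (-1.23). The monocyte attractant Ccl2 had a step of -0.91 and Ccl6 of -0.66. Against these stood Cxcl9, which interferon gamma induces and which recruits lymphocytes, at 4.09, 5.54, 4.73 and 5.74 (1.01), Ccl5 at 0.65 and Cxcl14 at 0.60. Of 19 expressed chemokine genes 2 were lower and 1 higher past 2-fold (0.182% and 0.248% of all expressed genes), with a median of -0.15. Arg1, the arginase of alternatively activated macrophages, was at 6.44, 4.06, 6.75 and 5.57 (-1.18).

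Marker genes of the white blood cells that carry some of these transcripts were read on the same arrays. Of 12 measured neutrophil genes Lcn2, S100a8 and S100a9 were past 2-fold lower (0.182% of all expressed genes). Of the 12, 4 were above the array median at 2.5 days and 1 at 4.5 days, and the summed level went from 9.59 to 8.70. Lcn2, S100a8 and S100a9 passed the expression filter through the 2.5-day array alone. The change in that count and most of the fall of the sum therefore repeat their steps. Over all 12 measured genes the median was -0.16. The receptor genes that define neutrophils were below the array median at both times, with Csf3r at 4.64 and 4.54 and Cxcr2 at 3.70 and 3.63. Of 19 expressed macrophage and monocyte genes none passed 2-fold, the median was 0.07, and the summed level was 13.67 and 13.87. Within that list Cd68 at -0.73, the scavenger receptor Cd163 at -0.59 and Gpnmb at -0.51 were lower, whereas the lysozyme genes Lyz1 and Lyz2 at 0.44 and 0.38 were higher. The part of these cells in the inflammatory genes was not tested.

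To show the sequence in front of genes that moved alike or apart, the 250 bases before the RefSeq start (build GRCm38.p6) are printed for 5 of the lower genes described above and for Reg3g, the relative of Reg3b that was higher. Lcn2, S100a9, Saa3 and Reg3b were chosen from the lower genes whose windows hold a C/EBP-type or STAT-type match. S100a8 was added as the neighbour of S100a9 that holds neither. Chil3 (STAT-type, 172 bases before the start) and Cxcl13 (C/EBP-type, 164 bases) hold such a match too and are not printed. Capitals mark matches to a STAT-type motif (TTCNNNGAA) and a C/EBP-type motif (TTGCNNAA), each searched on both strands, and TATAAA on the strand of the gene. No match of these motifs overlaps another in the windows printed.
Lcn2, chr2:32387740-32387989, minus strand: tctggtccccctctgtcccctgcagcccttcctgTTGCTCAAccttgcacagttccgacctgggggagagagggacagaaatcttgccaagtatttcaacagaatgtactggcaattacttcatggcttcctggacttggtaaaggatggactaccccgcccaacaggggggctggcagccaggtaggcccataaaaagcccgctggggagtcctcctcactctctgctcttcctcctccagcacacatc
S100a9, chr3:90695722-90695971, minus strand: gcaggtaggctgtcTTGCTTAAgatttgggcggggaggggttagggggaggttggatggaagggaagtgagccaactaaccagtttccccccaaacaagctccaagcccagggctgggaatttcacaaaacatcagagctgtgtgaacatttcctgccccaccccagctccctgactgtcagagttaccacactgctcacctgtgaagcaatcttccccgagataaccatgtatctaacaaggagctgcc
S100a8, chr3:90668821-90669070, plus strand: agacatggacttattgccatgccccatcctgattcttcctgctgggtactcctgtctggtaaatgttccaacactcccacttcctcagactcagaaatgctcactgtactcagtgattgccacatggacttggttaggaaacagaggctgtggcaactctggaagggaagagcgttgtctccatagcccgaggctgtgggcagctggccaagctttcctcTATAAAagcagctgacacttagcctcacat
Saa3, chr7:46715677-46715926, minus strand: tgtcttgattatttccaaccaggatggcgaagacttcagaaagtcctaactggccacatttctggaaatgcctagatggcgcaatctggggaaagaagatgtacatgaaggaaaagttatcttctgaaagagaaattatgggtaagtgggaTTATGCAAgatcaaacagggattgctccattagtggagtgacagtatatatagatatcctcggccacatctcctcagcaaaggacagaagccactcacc
Reg3b, chr6:78370635-78370884, plus strand: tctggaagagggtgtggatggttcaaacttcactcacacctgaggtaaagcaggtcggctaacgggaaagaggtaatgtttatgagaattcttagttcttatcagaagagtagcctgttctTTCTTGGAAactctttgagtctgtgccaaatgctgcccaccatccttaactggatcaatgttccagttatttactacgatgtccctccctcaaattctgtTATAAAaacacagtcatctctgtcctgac
Reg3g, chr6:78468875-78469124, minus strand: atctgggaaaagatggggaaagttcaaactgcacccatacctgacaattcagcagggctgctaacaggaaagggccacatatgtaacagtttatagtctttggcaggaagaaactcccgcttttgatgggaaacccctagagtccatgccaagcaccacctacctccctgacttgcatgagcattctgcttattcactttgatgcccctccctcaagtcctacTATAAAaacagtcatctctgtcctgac

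The C/EBP-type letters began 216 bases before the start in Lcn2, 236 in S100a9 and 99 in Saa3. The window of S100a8 had TATAAA alone, at 30 bases, and that of Cxcl2 held none of the motifs. Reg3b held the STAT-type letters 129 bases before its start, whereas Reg3g held none of them, and both had TATAAA, at 29 and 27 bases. The windows of Reg3b and Reg3g were 68.4% identical over 253 aligned positions. Of the 17 lower genes with a window in the table, 4 held a C/EBP-type match, against 9.56% of all 32851 windows. Of the 22 higher genes with a window 1 did. STAT-type letters were in 2 lower and 2 higher genes against 7.02% of all windows, and TATAAA in 5 lower and 6 higher genes against 7.59%. A match is a description of these letters and not a site.

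Several of the genes past 2-fold lie side by side in the genome. Protein-coding genes of the RefSeq annotation were counted between them, leaving out those with Gm-number symbols. By this count Mcpt1 and Mcpt2, S100a8 and S100a9, Chia1 and Chil3, and Guca2a and Guca2b have 0 genes between them. Each of these pairs moved the same way. Reg3b and Reg3g, with 4 protein-coding genes between them, went apart. Reg3g, an antimicrobial lectin like Reg3b, was at 4.86, 6.76, 7.60 and 8.86, a step of 1.26, while Reg3b had a step of -2.41. Reg1, the other expressed member of that family, was at 6.51 and 6.68. These lectins are close relatives in sequence, and cross-hybridisation between their probes was not tested.

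**Figure D3:**
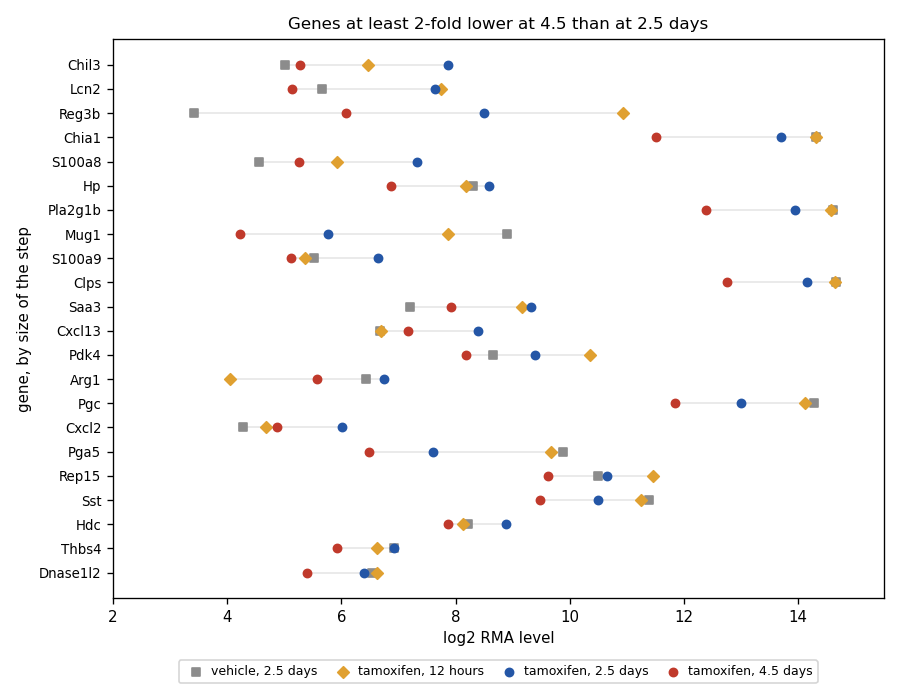
Log2 levels on the 4 arrays for the 22 genes at least 2-fold lower at 4.5 days (red circles) than at 2.5 days (blue circles), ordered by the size of the step. Squares are vehicle at 2.5 days and diamonds tamoxifen at 12 hours. Chia1, Pla2g1b, Clps and Pgc lie at the right, above 11 on every array, and Reg3b has the widest range, from 3.43 to 10.94.

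Endocrine genes were lower across most of their list. Sst, the gene of somatostatin, which restrains acid secretion, was at 11.39, 11.24, 10.50 and 9.48, a step of -1.02. Ghrl, the gene of the appetite hormone ghrelin, was at 12.77, 12.66, 12.20 and 11.40, a step of -0.79. Gast, the gene of gastrin, which stimulates acid secretion and is made mainly in the antrum, was at 12.16, 12.12, 12.03 and 11.59, a step of -0.44. All 3 hormone genes were lowest at 4.5 days.

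Granule proteins of endocrine cells were lower too. Chga, which encodes chromogranin A, was at 10.68, 10.61, 10.98 and 10.32, and Chgb at 10.08, 10.01, 10.71 and 9.99, steps of -0.65 and -0.71 that followed a 2.5-day level above vehicle. The secretogranin genes Scg2 and Scg3 were below vehicle already at 2.5 days (6.78, 6.94, 6.58 and 6.18 for Scg2), with steps of -0.40 and -0.28. Hdc, the histamine-making enzyme of enterochromaffin-like cells and mast cells, was at 8.23, 8.13, 8.89 and 7.87 (-1.02), and Slc18a2, the vesicular monoamine transporter of the same cells, had a step of -0.69. Of 15 expressed endocrine genes 2 were past 2-fold lower (0.182% of all expressed genes were), 7 past 1.5-fold lower (1.17%), and 13 lay below 0 (56.2%), with a median of -0.44. Slc18a1 at 0.10 and the transcription factor gene Neurod1 at 0.12 were the members above 0. Over all 17 measured members the endocrine median was -0.40 for the step. Over the same members it was -0.07 in the comparison of the 2.5-day array with vehicle and -0.36 in that of the 4.5-day array. The calls of Sst and Hdc rest on hundredths of a unit: centring on the hybridisation controls gave -0.99 for both.

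Mucous neck and SPEM genes were higher as a list. Olfm4, a secreted glycoprotein known from intestinal stem cells, was at 6.86, 7.79, 6.42 and 8.99, a step of 2.57 (5.94-fold) from the lowest to the highest of the 4 arrays. Cftr, the chloride channel of fluid-secreting epithelia, was at 6.52, 5.38, 7.67 and 8.90 (1.22), but a dim second probe set gave 0.10. Aqp5, the water channel of pyloric-type and mucous glands, was at 8.18, 7.45, 8.74 and 9.79 (1.05). Of 20 expressed members 3 were past 2-fold higher (0.248% of all expressed genes were) and none lower, 7 were past 1.5-fold higher (0.933%), 17 lay above 0 (43.5%), and the median was 0.40.

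The members between 1.5-fold and 2-fold were the tight junction gene Cldn7 at 0.80, the glutathione peroxidase gene Gpx2 at 0.75, the cystine transporter gene Slc7a11 at 0.72 and Gkn3, a gastrokine of mucous neck cells, at 0.60. Gkn3 had been below vehicle at 2.5 days (12.78, 12.45, 12.30 and 12.90), whereas Gpx2 had been above it (10.51, 10.72, 11.90 and 12.65). Best-known members moved little: Tff2, which encodes spasmolytic polypeptide, was at 13.86 and 14.04, Clu at 14.14 and 14.08, Cd44 at 10.59 and 10.96, Wfdc2 at 8.75 and 9.06 and Sox9 at 8.36 and 8.54. Dmbt1, a scavenger receptor of mucosal defence, had a step of -0.73, to 12.27, against a vehicle level of 10.97. Other claudin genes were higher beside Cldn7, with Cldn4 at 0.72 and Cldn2 at 0.69, and 3 of 13 expressed genes of that list passed 1.5-fold higher (0.933% of all expressed genes). Surface mucous genes differed by at most 0.29 in size, with a median of 0.00 over 11 expressed members.

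Parietal cell genes did not move together. Of 18 expressed members 1 was higher and none lower past 2-fold (0.248% and 0.182% of all expressed genes). Aqp4, a water channel of the basolateral membrane of parietal cells, was at 9.15, 6.79, 6.10 and 8.09, a step of 1.99 (3.98-fold) that left it below vehicle. It has 3 probe sets, all higher at 4.5 days, of which 2 were dim on both arrays, and the one of median difference gave 1.18. The proton pump genes Atp4b and Atp4a had steps of 0.43 and 0.24 (Atp4b at 14.19, 13.24, 12.45 and 12.88), and the histamine receptor gene Hrh2 of 0.37. In contrast the estrogen receptor gene Gper1 was at -0.63, the gastrin receptor gene Cckbr at -0.53, the potassium channel genes Kcnj16 and Kcnj15 at -0.50 and -0.46 and the nuclear receptor gene Esrrg at -0.39. Slc26a7, a chloride and bicarbonate transporter, went from 5.19 to 4.19 (-0.99), below the array median on both arrays, so it was not counted as expressed. Above 0 were 10 members and below it 8 (43.5% and 56.2% of all expressed genes). The list median was 0.01, and it changed sign under other centrings (-0.02 to 0.05).

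**Figure D4:**
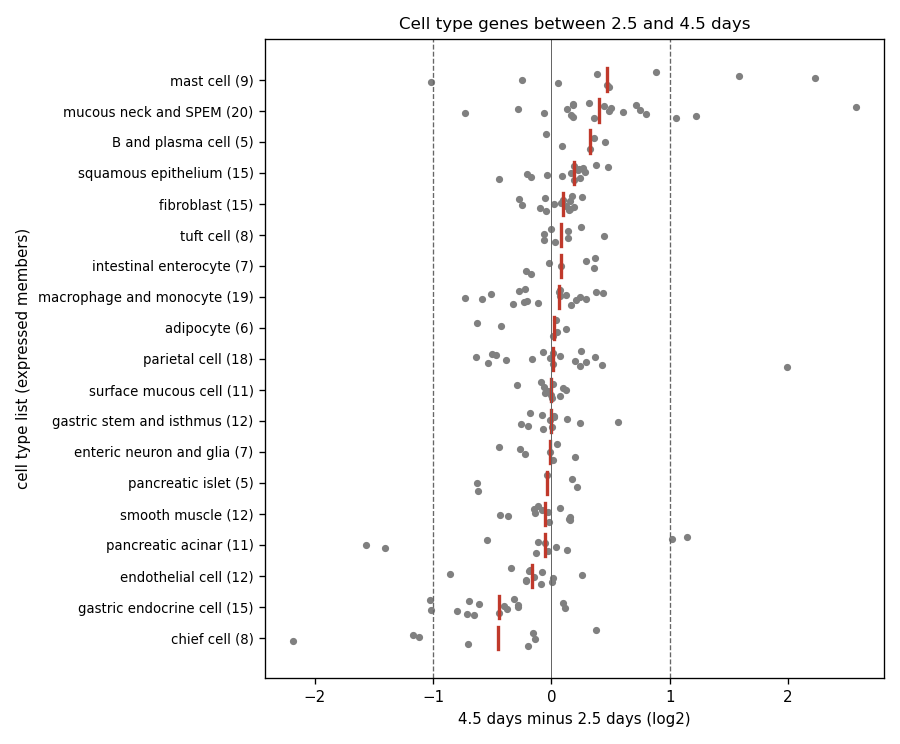
Differences of the 4.5-day minus the 2.5-day array (log2) for expressed members of the cell type lists with at least 5 such members, 1 point per gene, with the median as a red bar. Dashed lines mark 2-fold. The mucous neck median lies at 0.40 and the mast cell median at 0.47 (0.23 over all measured members), and the endocrine and chief cell medians lie at -0.44 and -0.45.

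Proteases of mucosal mast cells were higher at 4.5 days. Mcpt1, a chymase of the mucosal type, was at 3.38, 4.86, 4.79 and 7.02, a step of 2.23 (4.68-fold), with only the 4.5-day level above its array's median. Mcpt2, its neighbour, was at 7.03, 7.38, 7.81 and 9.39, a step of 1.59. The tryptase gene Tpsb2 followed at 0.89, from 5.08 to 5.97, the chymase gene Cma1 at 0.49, the carboxypeptidase gene Cpa3 at 0.47 and Mcpt4, of connective tissue mast cells, at 0.38. The 4.5-day array was the highest of the 4 for each of these 6 genes, and Tpsb2 and Mcpt4 had been lowest at 2.5 days.

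Receptors that define mast cells did not share this size. Fcer1a, the alpha chain of the IgE receptor, was at 3.49 and 3.77, and its beta chain gene Ms4a2 at 4.22 and 4.18, both below the array median. The stem cell factor receptor gene Kit was at 7.26 and 7.01 and the transcription factor gene Gata2 at 7.03 and 7.08. Of 9 expressed mast cell genes 2 were higher and 1, Hdc, lower past 2-fold (0.248% and 0.182% of all expressed genes), the median was 0.47, and the summed level of the 15 measured members went from 10.42 to 10.80. Of these 9, Mcpt1, Mcpt4 and Tpsb2 passed the filter through the 4.5-day array alone, and over all 15 measured members the median was 0.23. Il33, an epithelial and stromal alarmin that acts on mast cells, was at 9.60, 8.32, 10.33 and 11.36, a step of 1.03. Rgs13, a regulator of G protein signalling known from mast cells and tuft cells, was at 6.62, 6.83, 6.00 and 7.33 (1.33). Of 8 expressed tuft cell genes none passed 1.5-fold, the highest being Dclk1 at 0.45.

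Other genes of the type 2 cytokine response list did not follow as a whole. Of its 14 expressed members 3 (Mcpt1, Mcpt2 and Il33) were higher and 2 (Chil3 and Arg1) lower past 2-fold, against 0.248% and 0.182% of all expressed genes, and the median was 0.14. The goblet cell gene Clca1 was at 0.67, from 10.56 to 11.23, and Retnla at 0.30. The cytokine genes Il4, Il5 and Il13 were below the array median on both arrays, with steps of -0.24, -0.03 and -0.18.

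The main chains of MHC class II, which present antigen to helper T cells, were higher by a like amount. Cd74, the invariant chain, was at 9.35, 9.56, 9.29 and 9.94, a step of 0.65. H2-Aa, an alpha chain, was at 10.20, 10.28, 9.88 and 10.49 (0.60), H2-Eb1, a beta chain, at 9.08, 9.08, 8.72 and 9.31 (0.59), and H2-Ab1 at 8.61, 8.60, 8.59 and 9.16 (0.57). All 4 had their lowest level at 2.5 days and their highest at 4.5 days. H2-DMa, which helps to load class II molecules, did not differ at 2 decimals. The transcriptional coactivator gene Ciita was below the array median, at 5.00 and 5.09, and the class I genes H2-K1, H2-D1 and B2m had steps of 0.23, 0.15 and 0.17. Of 13 expressed genes of the list 3 passed 1.5-fold higher (0.933% of all expressed genes), 10 lay above 0 (43.5%), and the median was 0.20. Ido1, a tryptophan-degrading enzyme induced by interferon gamma, was at 3.82, 4.68, 4.05 and 5.73, a step of 1.68, and Cxcl9 was given above. Genes of the type I interferon response went both ways without reaching 1.5-fold, from Ifit2 at -0.53 and Irf7 at -0.49 to Usp18 at 0.46, with a median of 0.02 over 18 expressed members. Of 5 expressed B and plasma cell genes Ighm was highest at 0.45 and the median was 0.33, against 0.10 over all 12 measured. Of dendritic cell genes none passed 0.19 among 4 expressed.

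From the 30 higher genes 6 that are known from intestinal or airway epithelium were grouped here after their values were seen. The group is not complete, since Olfm4, described above, is also known from intestine. The neighbours Guca2b and Guca2a, which encode the guanylate cyclase ligands uroguanylin and guanylin, were at 5.04, 5.47, 5.63 and 6.98 (1.35) and at 3.74, 4.20, 4.87 and 6.04 (1.17). Kcne3, a potassium channel subunit of chloride-secreting epithelium, was at 8.54, 7.99, 9.01 and 10.16 (1.15). Itln1, the lectin intelectin of goblet and Paneth cells, was at 4.89, 5.25, 5.50 and 6.51 (1.01), Ffar4, a fatty acid receptor gene, at 4.90, 4.77, 5.59 and 6.71 (1.11), and Sftpd, the collectin surfactant protein D, at 5.18, 5.85, 6.69 and 7.79 (1.10). The 4.5-day array was the highest of the 4 for each of these 6 genes. The same held for all of the 30 higher genes but Aqp4, Scd1, Sycn and Rnase1, so it does not set this group apart. Genes that define the intestinal epithelium did not show such a step: Cdx1 was at 3.25 and 3.31, Cdx2 at 4.95 and 4.91 and Muc2 at 4.93 and 5.08, all below the array median. The enterocyte list had a median of 0.08 over 7 expressed members, led by Vil1 at 0.37 and Apoa4 at 0.36.

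Cyp2c29, a cytochrome P450 known from liver, had the largest increase of the step. It was at 3.80, 3.99 and 3.91 on the vehicle, 12-hour and 2.5-day arrays and at 6.58 on the 4.5-day array, a difference of 2.67 (6.34-fold) read by 1 probe set. Relatives stayed below the array median, such as Cyp2c38 at 3.98 and 4.24 and Cyp2c39 at 3.04 and 3.34, and cross-hybridisation within this family was not tested. Of 10 measured hepatocyte genes 3 were expressed, Apoa1 at 0.91, Ttr at -0.39 and Ahsg at -0.40. The albumin gene Alb, below the array median, was at 4.54 and 5.21, and the median of the 10 was -0.06. Of 13 expressed cytochrome P450 genes of the list, which did not hold Cyp2c29, none passed 2-fold, and Cyp2b10 was lowest at -0.74.

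Lipid genes were among both sets. Apoc2, the activator of lipoprotein lipase, was at 5.21, 5.66, 6.12 and 7.61, a step of 1.48. Scd1, the desaturase that makes monounsaturated fatty acids, was at 10.01, 8.68, 7.65 and 8.65, a step of 1.0, with Scd2 at 0.63 and the elongase gene Elovl6 at 0.50. Apoa1 went from 9.99 to 10.90 after 13.50 in vehicle. Lower were Pdk4, a kinase that shuts off pyruvate oxidation, at 8.65, 10.36, 9.39 and 8.18 (-1.21), the acyl-CoA thioesterase gene Acot2 at -0.68 and Angptl4 at -0.53, all of them targets of PPAR receptors. Of 17 expressed fatty acid oxidation and PPAR genes 14 lay below 0 (56.2% of all expressed genes), 1 passed 2-fold lower (0.182%), and the median was -0.13.

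On the list of matrix genes and matrix proteases no member passed 2-fold. Plau, the urokinase gene, had a step of 0.95 (7.32 to 8.26), the stromelysin gene Mmp10 of 0.81, the collagenase gene Mmp13 of 0.69, the matrix glycoprotein gene Tnc of 0.62 and the macrophage elastase gene Mmp12 of 0.51. Of 15 expressed members 4 passed 1.5-fold higher and none lower (0.933% and 1.17% of all expressed genes), and the median was 0.19. Outside the list, and past 2-fold, were Cemip, a hyaluronan-degrading protein, at 4.93, 4.51, 6.59 and 7.71 (1.12), Dmp1, a secreted phosphoprotein known from bone, at 4.94, 4.23, 7.22 and 8.23 (1.01), and the stromal cytokine gene Il11 at 5.42, 5.07, 5.50 and 6.59 (1.09). The 3 probe sets of Dmp1 gave 0.88 to 1.19, whereas of the 3 of Cemip only 1 was above the array median. Ereg, a ligand of the EGF receptor, had a step of 0.81, the largest in that family, from 9.11 to 9.92.

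The remaining genes past 2-fold fall in no group above. Higher were Ly6m, a membrane protein of the Ly6 family, at 8.24, 6.96, 6.79 and 8.55 (1.76), Msln, a surface protein of mesothelium, at 4.69, 4.80, 5.62 and 6.95 (1.33), the serpin gene Serpinb6b at 5.32, 5.85, 5.57 and 6.81 (1.24), the serine protease gene Prss22 at 4.46, 4.97, 5.08 and 6.24 (1.16) and Atg9b at 4.33, 4.37, 4.87 and 5.90 (1.03). Lower were Mug1, a protease inhibitor of the alpha-macroglobulin family, at 8.91, 7.86, 5.77 and 4.22 (-1.54), Rep15 at 10.49, 11.45, 10.65 and 9.62 (-1.03), the matrix protein gene Thbs4 at 6.92, 6.63, 6.92 and 5.91 (-1.01) and Dnase1l2 at 6.54, 6.63, 6.40 and 5.40 (-1.0). Just outside 2-fold lay Vnn1 at 0.99 and Ceacam10 at -0.99, and just inside it Scd1 and Dnase1l2.

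**Figure D5:**
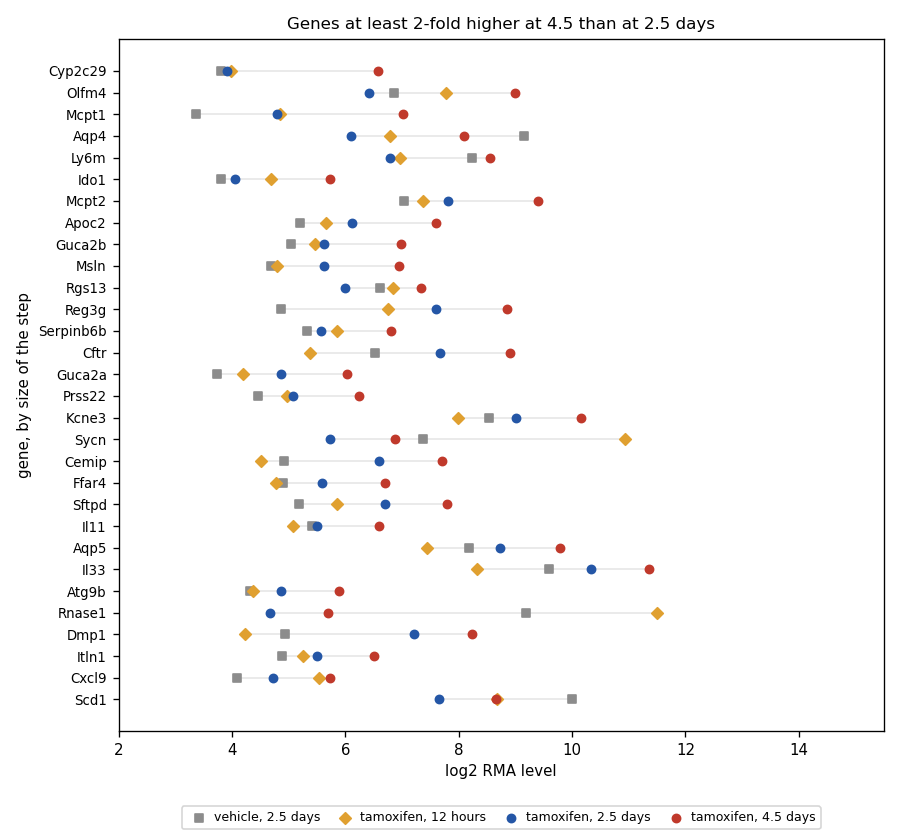
Log2 levels on the 4 arrays for the 30 genes at least 2-fold higher at 4.5 days (red circles) than at 2.5 days (blue circles), ordered by the size of the step. Squares are vehicle at 2.5 days and diamonds tamoxifen at 12 hours. Aqp4, Scd1, Sycn and Rnase1 have vehicle levels above the 4.5-day level, and Cyp2c29 has its other 3 arrays between 3.80 and 3.99.

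Growth programs differed little between the 2 times. Of 24 expressed DNA replication genes none passed 1.5-fold, the cyclin genes Ccne1 and Ccne2 were lowest at -0.48 and -0.46, and the median was -0.07. Of 23 mitotic genes none passed 1.5-fold, from Kif11 at -0.14 to Cdc20 at 0.21, with a median of 0.04. Ribosome biogenesis genes had a median of 0.09 and lay between -0.06 and 0.26. Above 0 were 17 of 18, against 43.5% of all expressed genes. In comparison with vehicle the medians of these 3 lists, over all measured members, were 1.23, 1.32 and 0.95 at 2.5 days and 1.16, 1.41 and 1.08 at 4.5 days. Of 16 NRF2 targets Gpx2 and Slc7a11 passed 1.5-fold higher (0.933% of all expressed genes did), with a median of 0.01. Of 18 ATF4 targets Slc7a11 did, with a median of 0.02. The Wnt target and stem cell marker Lgr5 was at 0.56. In all, 18 of the 69 lists had a member past 2-fold and 51 had none. Only 0.429% of all expressed genes were past 2-fold in either direction, so a list without such a member is no result by itself.

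Lists of other tissues that the dissection could hold had small medians. Smooth muscle genes had a median of -0.05 over 12 members with a summed level of 15.11 and 15.09, fibroblast genes one of 0.10 over 15, and endothelial genes one of -0.16 over 12 with the lymphatic marker Lyve1 at -0.86. Squamous genes had a median of 0.19 over 15 expressed members, none past 1.5-fold, and a summed level of 13.10 and 13.35. Clock genes, read because collection time can differ between pools, had a median of -0.11 over 16 expressed members, with Per1 at -0.71 and Npas2 at -0.67 lowest and Dbp and Arntl at 0.05 and -0.06.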

How the data were processed

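The 4 deposited arrays were used as the authors' log2 RMA values of 45101 probe sets. The submitters' processing notes name RMA and Partek without versions. The log2 base was inferred from the values. RMA gives every array the same distribution, which hides a change common to most genes, and it shrinks differences of dim and very bright probe sets. The number of arrays limits the precision.

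Exactly 1 gene symbol belonged to 34958 probe sets in the platform annotation, several to 932 and none to 9211, controls included. Gene IDs of 34754 matched RefSeq, and no symbol needed updating. Where a gene had several probe sets, the brightest on average over the 4 arrays stood for it, which gave 18193 genes. The step is the 4.5-day minus the 2.5-day log2 value, computed with pandas 2.3.3 in code that was tested on simulated data.

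The members and the 69 gene lists (1063 genes, of which 972 were measured and the rest not analysed here) were chosen with earlier results of these data known. The rule for named genes took, among expressed genes with a gene name, the 20 largest differences in each direction and, from every list, at most the 4 expressed members that differed most. Other genes past 2-fold, and other members and genes named, were chosen after their values were seen. Other low-value filters, probe set rules and centrings were tried.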

Additional observations from a re-analysis of the deposited data

How the results depend on the processing

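With a filter at the 75th percentile 14 genes were higher and 15 lower. At 1.5-fold, a setting chosen after seeing the data, 113 were higher and 142 lower. Under the other planned settings 23 to 31 genes were higher and 17 to 24 lower, and without the acinar and squamous lists, also chosen after seeing the data, 28 and 20. Centred on the hybridisation controls 17 of the 22 lower genes stayed past 2-fold, and Rep15, Sst, Hdc, Thbs4 and Dnase1l2 lay between -1.0 and -0.97. Taking for each gene the probe set whose difference was of median size, Atg9b gave -0.088 and Pla2g1b 0.041, in each case a dim probe set. There Aqp4 was at 1.18 on a probe set below the array median, Cftr, Cemip, Cxcl9 and Dnase1l2 were at 0.10, 0.28, 0.16 and -0.09 on dim probe sets, and Sycn, Scd1, Cxcl13 and Hdc lay at 0.97, 0.87, -0.91 and -0.85. Centring moved the median gene by 0.02 to 0.04 (by lowess, single genes by other amounts, with Rnase1 and Cxcl9 at 1.0 and 0.99) and changed the sign of list medians within 0.05 of 0 only. No paired analysis was possible because the labels carry no replicate numbers and each group is 1 array. No result here has an estimate of the spread between mice.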

Other observations

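Several genes known to be induced by glucocorticoids were lower at 4.5 than at 2.5 days in a set picked after their values were seen. Fkbp5, a cochaperone of steroid receptors, was at 8.83 in vehicle and at 9.82, 10.21 and 9.23 on the 12-hour, 2.5-day and 4.5-day arrays. Tsc22d3, which encodes the leucine zipper protein GILZ, was at 9.83, 9.69, 9.86 and 9.13 in that order. Sgk1, a kinase of ion transport, went from 10.77 to 10.23 and the transcription factor gene Klf9 from 11.35 to 10.83, and the step of Zbtb16 was -0.42. Pdk4 and Per1, which also respond to glucocorticoids, had steps of -1.21 and -0.71. Cebpd did not move, at 9.96 and 9.99, and Errfi1 was at -0.23.

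Some genes of the mesothelium that covers the stomach were higher. Beside Msln, Muc16 was at 4.65, 4.30, 4.91 and 5.76 in the order vehicle, 12 hours, 2.5 and 4.5 days, and Upk3b at 5.45, 4.97, 5.21 and 5.96. The transcription factor gene Wt1 was below the array median at all times, at 4.13 and 4.82 on the 2.5-day and 4.5-day arrays, as was Lrrn4 at 4.52 and 4.87. Against this Gpm6a, another gene of mesothelium, was at 7.83 and 7.42, and Prg4, the lubricant of serosal surfaces and joints, at 7.93 and 7.03. This set too was picked after its values were seen.

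Enzymes that decorate glycans were split. The fucosyltransferase gene Fut4 had a step of -0.89, from 9.65 to 8.76, and Fut9 one of 0.61, from 6.13 to 6.73. Among transporters and enzymes of drug metabolism Aldh3a1 went from 12.36 to 11.52 and Gsta3 from 8.99 to 8.36. In iron handling the transferrin receptor gene Tfrc went from 10.76 to 11.33 and the hepcidin gene Hamp from 5.76 to 6.33, whereas Hamp2 went from 7.72 to 7.31. The calcium-binding gene S100g, at 6.35 and 7.02, and the annexin gene Anxa8, with a step of 0.63, were higher beside the lower S100a8 and S100a9.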
